A study of Mus musculus with 6 samples.

Results

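Ventricular repolarization in the mouse was examined here through 9 genes, the potassium channel pore genes Kcnd2, Kcnd3, Kcna4, Kcna5, Kcnj2, Kcnj11, Kcnq1 and Kcnh2 together with Kcnip2, which encodes the accessory protein KChIP2. The genes were found by their symbol among 22206 transcript clusters (the array's unit for a gene), and all 9 had 1 cluster of their own. They were selected on an earlier result of these arrays, the fall of Kcnip2 in ATF6β-cn hearts. The values of Kcnip2 in comparisons that hold the ATF6β-cn arrays are therefore a description. Its calls, standard errors and intervals there come from the fit of all clusters and are no test of that fall. The question put to the other 8 was whether the genes of the channel pores followed Kcnip2.

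RNA came from the ventricles of 6 mice, 2 per group, 8 weeks old and 4 weeks after doxycycline was taken from their food. The mice were of a pure C57BL/6 background. All 6 carried tTA, a transactivator that doxycycline silences, under the α-myosin heavy chain promoter. Control mice (aMHC-tTA) carried nothing else, while the others also carried a responder transgene for the active N-terminal fragment of ATF6α (aMHC-tTA;ATF6α-cn) or of ATF6β (aMHC-tTA;ATF6β-cn), so that expression was directed to cardiac myocytes whereas the RNA was of the whole ventricle. Doxycycline had been given until weaning because ATF6β-cn mice otherwise died early. The sources used here do not say how many founders stand behind each line, nor the sex of the mice on the arrays.

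The deposited values are log2 signals, so a difference of 1 is a doubling. Atf6b had a log2 signal of 8.72 and 8.63 in control, 8.65 and 9.18 in ATF6α-cn and 14.80 and 14.81 in ATF6β-cn, while Atf6 in ATF6α-cn was at −0.18 against control (adjusted p = 0.850 from limma). Where the Atf6 probes lie is not given, and probes outside the fragment would not read the transgene, so the label of ATF6α-cn could not be checked by it. The 9 ventricular myocyte markers were all far above background, and their summed signal lay between 22.34 and 22.39 on a log2 scale on all arrays, although several of them stood near the highest value in the table (19.93), where a change would be hard to see. Of 5 atrial markers, Myl7 and Bmp10 stayed between 3.31 and 4.44, below the background level of 5.03 (set so that 95% of the genes for olfactory or vomeronasal receptors lie under it), Myl4 lay above it on every array, at 6.43 to 7.23, and Sln near it, at 4.82 to 5.57 with all 4 transgenic arrays above control, while Nppa stood at 1.57 in ATF6β-cn and 2.18 in ATF6α-cn against control. Negative control probe sets had a median of 5.02 and 5.08 on the control arrays and between 5.44 and 5.48 on the 4 transgenic arrays, so small differences of dim genes between control and either line cannot be told apart from this shift.

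After each beat the ventricle repolarizes as potassium leaves the myocyte through several kinds of channel. Fast transient outward current flows through pores of Kv4 subunits (Kcnd2 and Kcnd3), and KChIP2, a calcium-binding protein that attaches to the N-terminus of Kv4 subunits, raises their number at the cell surface and slows their inactivation. In adult mouse ventricle this current and the ultrarapid current of Kcna5 carry much of early repolarization, and mice without Kcnip2 lack the fast transient outward current.

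A transcript start of Kcnip2, which lies inside the annotated gene, and the start of Kcnd2 are shown because the proteins form 1 channel complex while Kcnip2 was lower in ATF6β-cn and Kcnd2 was not. Capitals mark the motif CCACG, the part of the ER stress element (ERSE) that ATF6 contacts, which the Kcnip2 window holds and the Kcnd2 window does not. Both windows run 5′ to 3′ from 250 bases before to 50 bases after a transcript start annotated by RefSeq (build GRCm38.p6), the Kcnip2 window at chr19:45816014-45816313 on the minus strand and the Kcnd2 window at chr6:21215096-21215395 on the plus strand.
Kcnip2: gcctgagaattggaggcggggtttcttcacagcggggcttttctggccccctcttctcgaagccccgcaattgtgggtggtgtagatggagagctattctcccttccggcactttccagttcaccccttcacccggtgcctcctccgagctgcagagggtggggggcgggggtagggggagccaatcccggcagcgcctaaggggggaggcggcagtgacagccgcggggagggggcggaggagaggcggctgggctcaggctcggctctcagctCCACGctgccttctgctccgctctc
Kcnd2: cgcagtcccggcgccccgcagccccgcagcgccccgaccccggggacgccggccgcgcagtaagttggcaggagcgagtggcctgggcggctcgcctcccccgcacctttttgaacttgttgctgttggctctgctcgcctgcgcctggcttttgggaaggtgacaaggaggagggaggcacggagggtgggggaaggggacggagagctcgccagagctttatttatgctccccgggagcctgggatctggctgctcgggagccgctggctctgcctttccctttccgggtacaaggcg

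A promoter window was found for 7 of the 9 genes. That of Kcnh2, like that of Kcnip2, is at a transcript start inside the annotated gene, so other starts of these genes were not read. On both strands, CCACG stood in 4 of the 7 (Kcnip2, Kcnd3, Kcna4 and Kcnj2), and in 32.8% of 32851 windows of all genes. In Kcnip2 it began 25 bases after the start. The window of Hcn2, a further channel gene described below that was also called lower in ATF6β-cn, held no CCACG. The full ERSE, which contains CCACG, was in 0 of the 7 and in 0.119% of all windows, and neither ERSE-II, which also contains CCACG (0.0365% of all), nor the core TGACGTG (2.01%) nor the cyclic AMP element TGACGTCA (1.79%) was in any of the 7. The E-box CACGTG, which can overlap CCACG, was in Kcnj2 only, where it did overlap, and in 7.15% of all windows. A match is a string of letters and not a bound site, and a window without one says nothing of the factor elsewhere in the gene.

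Kcnip2 had the lowest log2 fold change of the 9 genes in ATF6β-cn against control, the comparison that selected it. Its log2 signal was 13.36 and 13.48 on the control arrays, 13.23 and 12.89 on the ATF6α-cn arrays and 11.45 and 11.60 on the ATF6β-cn arrays. Both ATF6β-cn arrays were thus below every other array, by more than 1 log2 unit. The mean was 13.42 ± 0.09 (SD, n = 2 arrays) in control and 11.53 ± 0.11 (SD, n = 2) in ATF6β-cn, a log2 fold change of −1.89 (standard error 0.22), or 3.72-fold lower. It still lay far above background. In bulk RNA, fewer cells of a type and less RNA per cell cannot be told apart. Kcnip2 was among the 0.306% of clusters called lower (an adjusted p under 0.05 from limma) in ATF6β-cn. That call rests on the values that selected the gene, so it is a description and no test of the fall. It did not hold in every fit, and the methods' t-test with adjustment did not give it. The log2 fold change stayed between −1.97 and −1.82.

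Kcnip2 in ATF6α-cn hearts stood at −0.36 against control on the log2 scale (95% interval −0.87 to 0.15), with an adjusted p = 0.665 from limma. Both arrays of this line were below both control arrays, as were those of Kcnd3, while those of Kcna5 were above, so that 3 of the 9 genes did not overlap with control, beside 39.5% of all clusters. None of the 9 was called in this line, where 0.0946% of all clusters were. Set directly against ATF6α-cn, Kcnip2 was lower in ATF6β-cn by a log2 difference of −1.53, again a description because the ATF6β-cn arrays chose it. The 2 transgenes were not expressed at equal levels, so here and below a difference between the lines cannot be told apart from one of dose. The smallest p that an exact permutation test of 2 against 2 arrays can give is 0.333, so calls rest on the spread that limma pools over clusters.

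**Figure D1:**
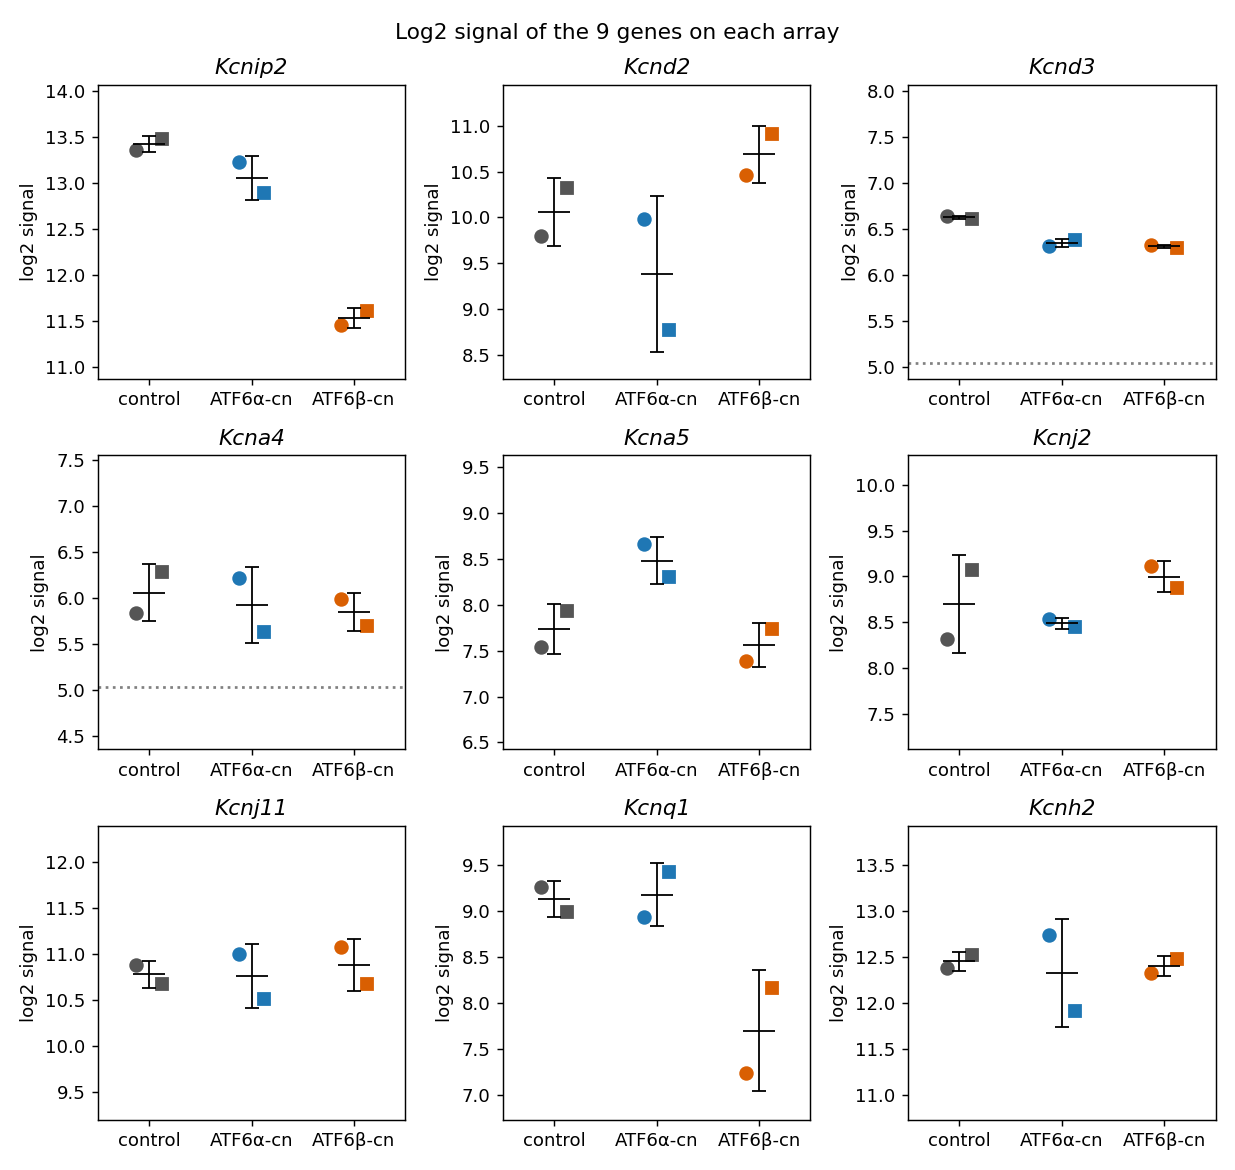
Log2 signal of each of the 9 genes (y axis, each panel spans 3.2 log2 units) on the 2 arrays of control, ATF6α-cn and ATF6β-cn hearts (x axis); circles are replicate 1, squares replicate 2, bars the mean ± SD, and the dotted line the background level of 5.03. Kcnip2 at 11.45 and 11.60 in ATF6β-cn is well below its other arrays, and Kcnq1 is also lowest there, at 7.23 and 8.17.

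No pore gene was called in ATF6β-cn. Of the 8, 0 were called lower and 0 higher against control, beside 0.306% and 0.793% of all clusters, and their median log2 fold change was −0.11 beside −0.02 over all clusters. At an unadjusted p under 0.05 from limma 1 of the 8 passed (Kcnq1), beside 13.9% of all clusters. As a description, since Kcnip2 was chosen by its own value of −1.89 (95% interval −2.40 to −1.38), the intervals of 7 of the 8 did not reach that value and that of Kcnq1 did.

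Kcnd2 encodes Kv4.2, the main KChIP2 partner in mouse ventricle. Its log2 signal was 9.80 and 10.32 in control, 9.98 and 8.78 in ATF6α-cn and 10.47 and 10.91 in ATF6β-cn. The ATF6β-cn arrays were the highest of all, and ATF6α-cn replicate 2 stood more than 1 log2 unit below the rest. Against control, ATF6β-cn stood at 0.63 on the log2 scale, with an adjusted p = 0.545 from limma and a 95% interval of −0.26 to 1.51 that holds both a rise and a small fall. The lines differed by 1.31 (standard error 0.39, adjusted p = 0.296 from limma), and by 0.71 without ATF6α-cn replicate 2.

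Measured on the same array, the signals of Kcnip2 and Kcnd2 changed unequally. Relative to the control mean, the log2 difference of Kcnip2 minus Kcnd2 was 0.20 and −0.20 on the control arrays, −0.11 and 0.75 on the ATF6α-cn arrays and −2.37 and −2.67 on the ATF6β-cn arrays. Both ATF6β-cn arrays were thus below all the others. The mean change of −2.52 holds the fall of Kcnip2 that selected it, so no test is given. It does not say how many of either message there are, since different probes read them.

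Kcnd3, which encodes Kv4.3, and Kcna4, which encodes Kv1.4, the pore of the slow transient outward current, were dim. Kcnd3 had 6.64 and 6.61 in control, 6.31 and 6.37 in ATF6α-cn and 6.32 and 6.30 in ATF6β-cn. Both lines lay below control without overlap, by little (−0.28 and −0.32 on the log2 scale, with adjusted p = 0.710 and 0.562 from limma). Kcna4 had 5.84 and 6.28, 6.21 and 5.63, and 5.99 and 5.70 in the same order, and all groups overlapped. Its signal was about 1 log2 unit above background, where a true change would be understated.

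Kcna5 encodes Kv1.5, the pore of the ultrarapid current. Its log2 signal was 7.54 and 7.93 in control, 8.66 and 8.30 in ATF6α-cn and 7.39 and 7.73 in ATF6β-cn. Here it was the ATF6α-cn arrays that stood apart, both above all others, at 0.74 against control on the log2 scale (95% interval 0.17 to 1.32), which gave an adjusted p = 0.456 from limma. In ATF6β-cn it was at −0.17 (adjusted p = 0.834 from limma), and the lines differed by −0.92 (adjusted p = 0.262 from limma). None of these passed.

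Among the inward rectifiers, Kcnj2, which encodes Kir2.1 of the current that holds the resting potential, had 8.32 and 9.07 in control, 8.53 and 8.45 in ATF6α-cn and 9.12 and 8.88 in ATF6β-cn. The control arrays alone spanned most of its range. Kcnj11, the Kir6.2 pore of the channel that ATP closes, ran from 10.51 to 11.08 over all arrays with overlapping groups (ATF6β-cn against control 0.10, 95% interval −0.49 to 0.70, with an adjusted p = 0.912 from limma). Kcnh2, the ERG pore of the rapid delayed rectifier, ran from 11.91 to 12.75, its lowest and highest values both being of ATF6α-cn, and ATF6β-cn stood at −0.05 against control (95% interval −0.71 to 0.61, with an adjusted p = 0.967 from limma).

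Kcnq1, which encodes the pore of the slow delayed rectifier, had the most negative log2 fold change of the pore genes in ATF6β-cn. Its log2 signal was 9.27 and 8.99 in control, 8.94 and 9.43 in ATF6α-cn and 7.23 and 8.17 in ATF6β-cn. Both ATF6β-cn arrays were below the other 4, though 0.93 apart from each other (SD 0.66, n = 2). Against control this was −1.43 on the log2 scale (95% interval −2.19 to −0.67), or 2.70-fold lower, and with an adjusted p = 0.0974 from limma it did not pass. It passed where limma let the variance follow the signal, fitted robustly (adjusted p = 0.0329 from limma), and without ATF6β-cn replicate 1 the log2 fold change was −0.96. In ATF6α-cn it was 0.05, and the direct difference between the lines was −1.48 (adjusted p = 0.166 from limma).

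**Figure D2:**
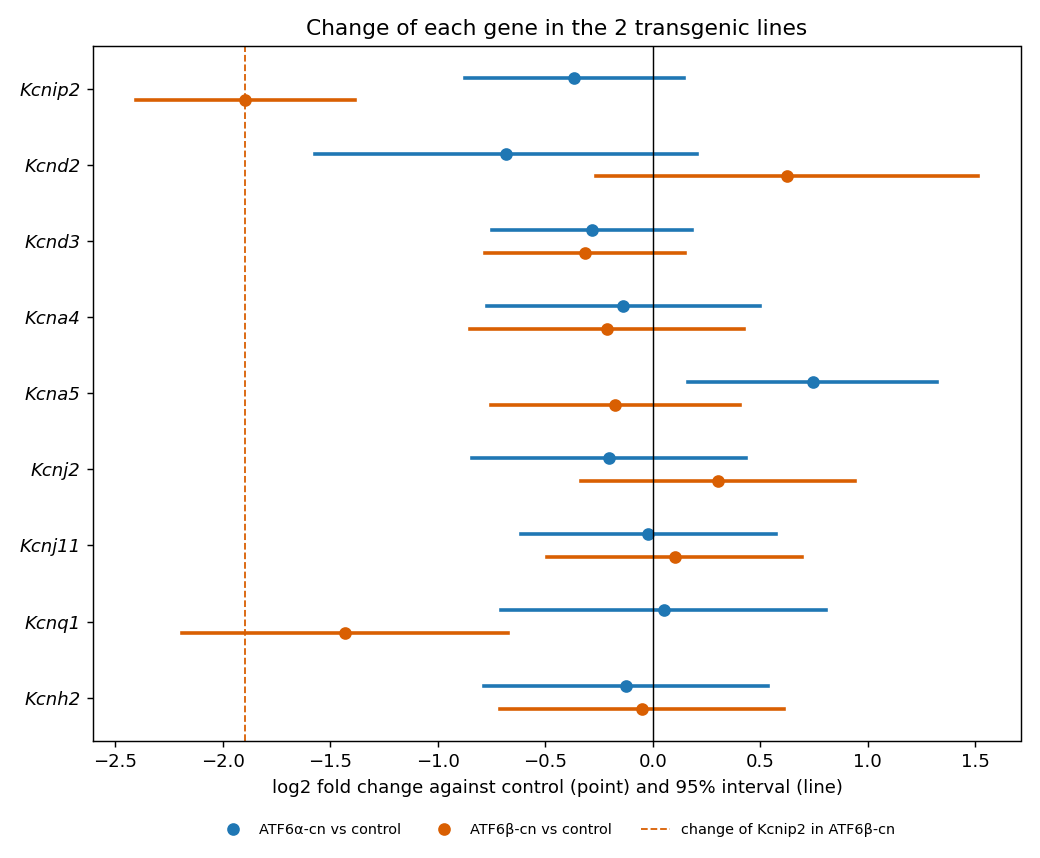
Log2 fold change against control (x axis, point) with its 95% interval from limma (line) for each of the 9 genes (y axis) in ATF6α-cn (blue) and ATF6β-cn (orange), n = 2 arrays per group; the dashed line marks the change of Kcnip2 in ATF6β-cn. Only the interval of Kcnq1 reaches that line among the pore genes in ATF6β-cn, and in ATF6α-cn the interval of Kcna5 lies above 0, at 0.74, while that of Kcnd2 includes 0, its value of −0.68 being −0.08 without replicate 2.

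By position of the arrays alone, 3 of the 9 genes (Kcnip2, Kcnq1 and Kcnd3) had both ATF6β-cn arrays below both control arrays, beside 23.3% of all clusters, and 1 (Kcnd2) had both above, beside 21.1%. Between the lines, 5 of the 9 did not overlap, with Kcnip2, Kcnq1 and Kcna5 lower and Kcnd2 and Kcnj2 higher in ATF6β-cn, beside 39.7% of all clusters. Of the 8 pore genes 0 were called there, beside 0.0495% of clusters called lower and 0.221% called higher, and 3 (Kcnq1, Kcna5 and Kcnd2) had an unadjusted p under 0.05 from limma, beside 9.67% of clusters. Both comparisons hold the same ATF6β-cn arrays, so 1 does not bear out the other.

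ATF6α-cn replicate 2 often held the lowest value of a pore gene. It was the lowest array for 4 of the 9 genes (Kcnd2, Kcna4, Kcnj11 and Kcnh2), and for 9 of 21 pore genes above background in control, those of the list below included (42.9%), beside 18.4% of all clusters above background. With Kcnip2 and the partners and scaffolds below added, it was the lowest for 9 of 32 (28.1%). Kcnj3, a pore of the channel opened by acetylcholine, was 12.36 on ATF6α-cn replicate 1 and 11.08 on replicate 2. On the same array Nppa, the atrial natriuretic peptide, had its highest value, 18.49 against 16.89 on replicate 1 and 15.51 and 15.52 in control. Without this array the value of Kcnd2 in ATF6α-cn against control went from −0.68 to −0.08 and that of Kcnip2 from −0.36 to −0.19.

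Around the 9 genes a wider set of 63 genes was read, from 64 listed, of which 42 were above background in at least 1 group. In ATF6β-cn against control 1 was called lower and 0 higher, beside 0.306% and 0.793% of all clusters, and 34 had a positive and 29 a negative value (median log2 fold change 0.09 beside −0.02 over all clusters). At an unadjusted p under 0.05 from limma there were 13 of the 63, beside 13.9% of all clusters. In ATF6α-cn 0 were called and 10 had an unadjusted p under 0.05 from limma, beside 8.92% of all clusters, and between the lines 0 were called and 9 had such a p, beside 9.67%. The methods' t-test with adjustment called 0 in every comparison.

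The gene called was Hcn2, which encodes a pacemaker channel of the inward current that hyperpolarization opens. Its log2 signal was 7.56 and 7.81 in control, 7.07 and 7.16 in ATF6α-cn and 5.70 and 6.25 in ATF6β-cn, so that the groups did not overlap and ATF6β-cn was the lowest. It fell by 1.72 on the log2 scale (standard error 0.25, adjusted p = 0.0195 from limma), or 3.28-fold. The call ended when any 1 of the control or ATF6β-cn arrays was left out, with log2 fold changes between −1.99 and −1.44 (adjusted p = 0.0608 to 0.136 from limma). In ATF6α-cn the log2 fold change was −0.57 (adjusted p = 0.559 from limma), and the lines differed by −1.14 (adjusted p = 0.154 from limma).

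Hcn4, the pacemaker channel that marks the conduction system, had 7.04 and 6.42 in control, 6.19 and 6.07 in ATF6α-cn and 5.62 and 5.37 in ATF6β-cn. Its ATF6β-cn signals were near the medians of the negative control probe sets on those arrays, 5.45 and 5.44. The order of the groups was that of Hcn2, and ATF6β-cn at −1.23 against control (adjusted p = 0.0718 from limma) did not pass. The summed signal of the 5 conduction markers, Hcn4 included, ran on a log2 scale from 7.82 to 8.34 in control and from 7.50 to 7.63 in ATF6β-cn, and Isl1, Shox2 and Cntn2 among them averaged below background in control. Whether fewer conduction cells had a part in the value of Hcn4 was not tested.

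Of 20 partners and scaffolds none was called in any comparison. Kcnip1, a KChIP of neurons, was at −1.06 in ATF6β-cn but had signals of 5.75 and 4.84 in control, and so began at the background level. Abcc8, the SUR1 subunit that joins Kir6.2, was at 0.93 (adjusted p = 0.301 from limma), with 8.83 and 9.94 on the ATF6β-cn arrays. Abcc9, the SUR2 subunit, singled out after its values were seen, had 14.86 and 14.90 in control, 14.64 and 14.41 in ATF6α-cn and 14.27 on each ATF6β-cn array. The ATF6β-cn arrays were lowest, at −0.61 against control (adjusted p = 0.246 from limma), which among the adjusted tests passed only where the variance could follow the signal (adjusted p = 0.0359 from limma). Kcne1, the partner of Kcnq1, lay below background on every array, at 4.32 to 4.73.

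Of the 29 other pore genes, Hcn2 was the 1 called. Kcnj14, an inward rectifier, was at 0.85 in ATF6β-cn and 0.66 in ATF6α-cn (adjusted p = 0.148 and 0.462 from limma), from a control mean below background. Kcnj12, the Kir2.2 pore, and Kcnj8, the Kir6.1 pore, both well above background, were at −0.20 and 0.11 in ATF6β-cn with overlapping arrays.

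Of 14 regulators none was called. Etv1, a transcription factor of fast-conducting myocytes, had 7.09 on both control arrays, 7.58 and 6.85 in ATF6α-cn and 8.15 and 8.29 in ATF6β-cn. The ATF6β-cn arrays were above all others, at 1.13 against control (95% interval 0.51 to 1.75, with an adjusted p = 0.110 from limma). Thrb, a thyroid hormone receptor, was at 0.91 (adjusted p = 0.230 from limma). Klf15, a zinc finger factor that activates Kcnip2 in mouse heart, varied more within control (8.36 and 7.15) than between groups (log2 fold change −0.26 in ATF6β-cn), and Irx5, a repressor of Kcnd2 in mouse heart, was at −0.12.

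**Figure D3:**
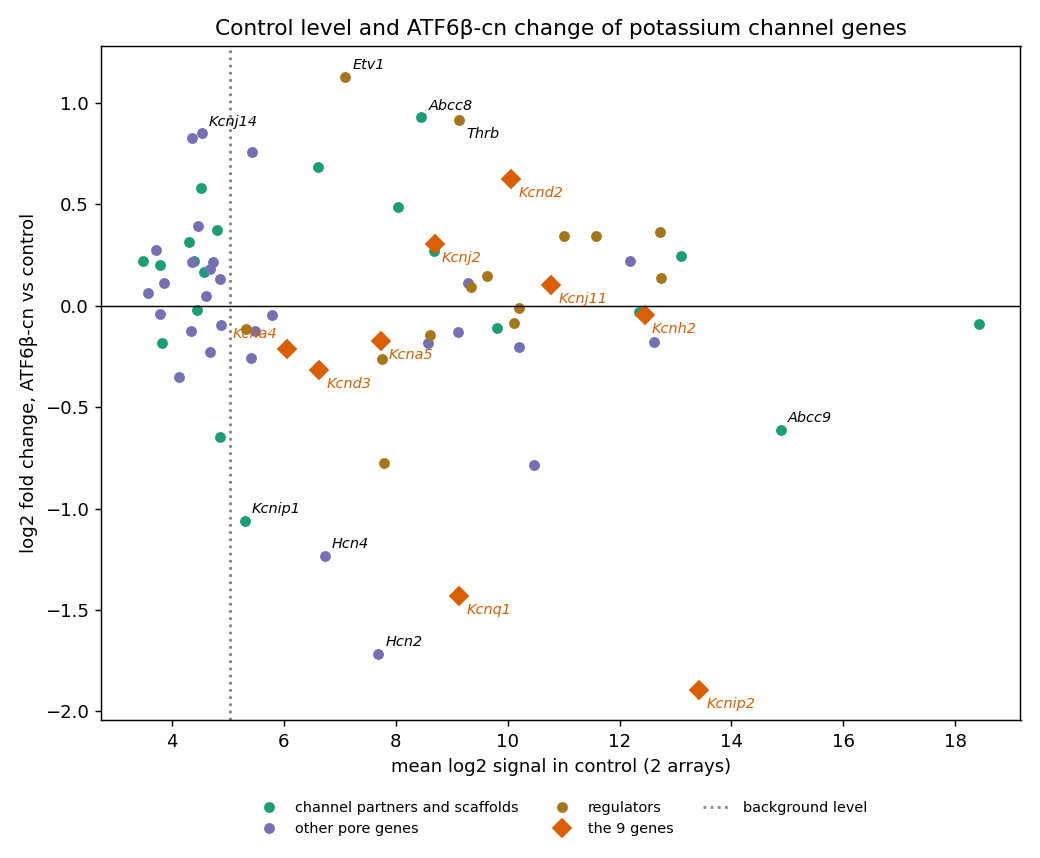
Mean log2 signal in control (x axis, 2 arrays) against the log2 fold change of ATF6β-cn over control (y axis) for the 9 genes (orange diamonds) and the 63 further genes (circles, coloured by list); the dotted line is the background level of 5.03. Kcnip2 at −1.89, Hcn2 at −1.72, Kcnq1 at −1.43 and Hcn4 at −1.23 lie lowest, while most of the other genes lie near 0.

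**Figure D4:**
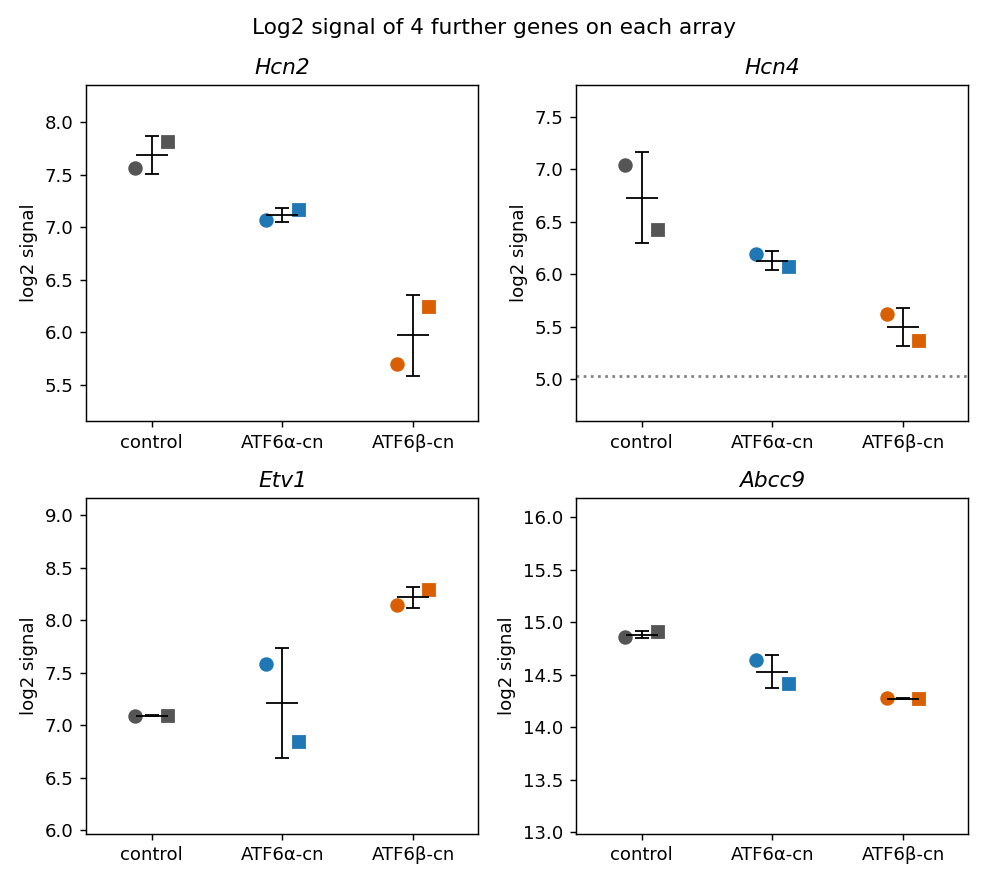
Log2 signal (y axis, each panel spans 3.2 log2 units) of Hcn2, Hcn4, Etv1 and Abcc9 on each array of the 3 groups (x axis), with circles for replicate 1, squares for replicate 2 and bars for the mean ± SD. Hcn2 and Hcn4 step down from control through ATF6α-cn to ATF6β-cn, whereas Etv1 is highest in ATF6β-cn, at 8.15 and 8.29.

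The genes most like Kcnip2 over the 6 arrays, by the root mean square difference of log2 signals after the control mean of each gene was subtracted, were Rasl10b (0.18), Sord (0.22), Ndrg4 (0.22), Fam213a (0.23) and Hcn2 (0.23), of 12072 genes above background in control. Hcn2, whose fall is given above, is thus no separate result here. The ranking uses the ATF6β-cn values that selected Kcnip2, so genes with a like fall stand near it by construction. Nearest to Kcnd2 were Thnsl2, Vcam1, Thbs2, Clec3b and Fmo2 (0.07 to 0.19), and nearest to Kcna5 Gm11037, Ccnl1, Ptcra, Rab2b and Clec18a (0.13 to 0.18).

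Signals of other cell types also differed between the groups. On a log2 scale the summed signal of 7 fibroblast and matrix markers was 17.81 on each control array. It was 17.76 and 17.90 in ATF6α-cn and 18.32 and 18.64 in ATF6β-cn, none of its genes being called. That of 6 endothelial markers ran from 15.35 to 15.40 in control, from 15.16 to 15.87 in ATF6α-cn and from 15.14 to 15.19 in ATF6β-cn. Against control, 2 of these 6 had a positive and 4 a negative value in ATF6β-cn. The sums in control, ATF6α-cn and ATF6β-cn lay, for 6 smooth muscle and pericyte markers, at 15.47 to 15.69, 15.79 to 16.19 and 15.67 to 16.51. For 6 leukocyte markers they were 12.99 to 13.12, 13.22 to 13.24 and 13.18 to 14.01. Nerve and glial markers were lowest in ATF6α-cn (7.52 to 7.66) and overlapped between control and ATF6β-cn (7.88 to 8.03), and the atrial sum, which is nearly all Nppa, was 15.51 to 15.52, 16.89 to 18.49 and 16.92 to 17.26. A sum follows its brightest genes. Acta2 had 13.44 and 13.89 in control and 14.42 and 15.91 in ATF6β-cn, but against control ATF6β-cn had Cspg4 at −0.83, Myh11 at −0.36 and Rgs5 at −0.25, so that the median of the smooth muscle and pericyte list was −0.10, and of the 7 fibroblast and matrix markers 6 had a positive value and Postn was at −0.27. The myocyte sum moved by less than 0.05 between any arrays. The part of these differences in the values of Kcnip2 and the pore genes was not tested.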

How the data were processed

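RNA of the ventricles of 6 mice was labelled with a 3′ in vitro transcription kit and put on Affymetrix Clariom S mouse arrays, 1 per mouse. The authors deposited log2 signals, 1 per probe set, whose medians of 5.575 to 5.639 over the arrays are those of normalized values. Per the labels Affymetrix Expression Console was used, with settings not stated in what was read here. The deposited tables of fold changes and p-values were used only to name probe sets. Of 28846 probe sets, 6640 controls were left out and 22206 clusters tested, 836 of which match several genes and 3 none.

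All 6 arrays entered 1 linear model with a mean for each group (limma 3.58.1 in R 4.3.3; degrees of freedom 3 residual, 5.63 prior). Benjamini-Hochberg adjustment ran over all clusters. The call is an adjusted p under 0.05. The calculation was tested on simulated data. Precision is limited by the number of arrays, which have no read depth. The members, gene lists and tests were chosen with earlier results of these data known. All 9 members are described; from each further list of channel genes every called gene and the 2 largest uncalled changes in ATF6β-cn are named, other names were chosen after their values were seen, and marker lists are given by summed signal. Mice with the same replicate number are not known to be paired. Alternatives were other normalizations, removal of dim clusters, other variance models, array weights, a replicate block, 4 arrays alone, each array left out, the methods' t-test and unadjusted p. No listed gene had several clusters, so that choice had no alternative. Kcne5 was not found, and Pdgfra shares its cluster with another gene and was left out. The value of 1 gene of the further lists is not reported here, though counts over the lists include it.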

Additional observations from a re-analysis of the deposited data

Results flagged for a closer look

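For the genes below the lines differed in the direct comparison or had their arrays on opposite sides of the control arrays. The share of all clusters with arrays on opposite sides was not counted. Between the lines alone, 39.7% of all clusters did not overlap. Kcnip2 was lower in ATF6β-cn than in ATF6α-cn by a log2 difference of −1.53, which passed the fit but is the gene selected on these arrays; the call ended when any 1 array was left out (Kcnip2 then at −1.70 to −1.36). Kcnip3, a KChIP also known as a calcium-dependent repressor, was below control on both ATF6α-cn arrays (6.20 and 6.54) and above it on both ATF6β-cn arrays (7.33 and 7.26), a difference of 0.93 (adjusted p = 0.187 from limma). Hopx, a cofactor of cardiac transcription, differed likewise by 0.75 (adjusted p = 0.290 from limma), as did Kcnip4 by 0.44 and Kcnc1 by 0.42, both of them below background. In the other direction Kcnk6 differed by −0.48 and Actn2 by −0.15. Apart from Kcnip2, none of these differences passed.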

How the results depend on the processing

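With 2 mice per group, genes that miss the call may still have changed, and dim genes understate a change. Of 8 pore genes 0 were called in each comparison by the model fitted as described and under every alternative except the following. Where the variance could follow the signal in a robust fit, 1 (Kcnq1) was called in ATF6β-cn against control. At unadjusted p 1 (Kcnq1) passed there, 1 (Kcna5) in ATF6α-cn against control and 3 (Kcnq1, Kcna5 and Kcnd2) between the lines. Student's t-test without adjustment, added after the data were seen, gave 1 (Kcnd3) in each line against control. Of the 63 further genes, called 1, 0 and 0, the unadjusted p gave 13, 10 and 9. Student's t-test gave 9, 4 and 7 without adjustment and 0, 0 and 0 with it. Of all 22206 clusters it passed 1110 higher and 1156 lower in ATF6β-cn without adjustment. These were 679 and 843 in ATF6α-cn and 916 and 717 between the lines. The trend with a robust fit gave 2 of the 63 in ATF6β-cn (Hcn2 and Abcc9). With 1 array left out the ATF6β-cn count ranged from 0 to 1, the call of Hcn2 ending when any 1 of the control and ATF6β-cn arrays was left out. The log2 fold change of Kcnip2 ranged from −1.97 to −1.82 in ATF6β-cn, from −0.53 to −0.19 in ATF6α-cn and from −1.70 to −1.36 between the lines when 1 array was left out. Over all clusters, 176 were called higher and 68 lower in ATF6β-cn against control; the robust trend gave 377 and 309, removal of dim clusters 238 and 133, 4 arrays alone 146 and 44, leaving out 1 array 41 to 146 and 0 to 44, and the adjusted t-test 0 and 0. In ATF6α-cn the robust trend gave 59 and 2 against 21 and 0, and between the lines 181 and 76 against 49 and 11. Kcnip2 against ATF6α-cn was no longer called with 4 arrays alone, quantile normalization or any 1 array left out.

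Arrays with the same replicate number showed no shared shift (the correlation of deviations from the group mean was 0.01, 0.02 and −0.02 for the 3 pairs of groups). This cannot exclude that the mice were paired. With the replicate block Kcnip2 kept −1.89, −0.36 and −1.53, though the last was no longer called, the pore genes had 0 calls and the further genes 1, 0 and 0. For the 17 single genes named with a test, Kcnip2 left out, 778 of 816 alternative values stayed on their side of the threshold. Of these, 28 were uncalled values that changed sign (27 with 1 array left out). Beside them 33 newly passed, 5 no longer passed and 0 called values changed sign. Most of the 816 were of genes not called to begin with. The 5 were all of Hcn2 in ATF6β-cn against control, the only call among the 17 genes.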
